A study of Rattus norvegicus with 16 samples.

Results

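Rat plantaris muscle at 28 days of overload was compared with the same muscle at 7 days of overload. Every array at those times was used, 4 per time, which is 8 of the 16 arrays of the study. The comparison runs over 14557 genes, each represented by its brightest transcript cluster among the clusters with exactly 1 gene symbol, out of 36685 clusters on the array. All rats were Sprague Dawley animals described as retired breeders. Both hindlimbs had the Achilles tendon excised, which disables the gastrocnemius and soleus and shifts plantar load to the plantaris, a model called synergist ablation. The day 7 and day 28 groups share strain, age class, surgery and tissue, and differ in time since surgery. The study also held 4 control muscles without overload (day 0) and 4 muscles at day 3, which entered the estimate of the spread and are set beside the result. No sham-operated group was used here, so surgery and load cannot be told apart, and nothing in the labels states that the numbered replicates were separate animals. The p-values therefore cover only the variation among the arrays of a day, part or all of which could be technical.

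Overloaded muscle passes through overlapping phases. Injury and sudden load bring in immune cells, activate fibroblasts that lay down collagen, and wake satellite cells, the stem cells of muscle, which divide, fuse with each other or with fibres and start new contractile proteins in their embryonic forms. Later the fibres mature: embryonic isoforms give way to adult ones, fuel-handling enzymes are restored and the matrix is remodelled. The step from day 7 to day 28 shows which of these programmes had moved away from their day 7 level, and the day 0 arrays show how far from control muscle they then stood.

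Values are log2 expression values, so a difference of 1 is a 2-fold change on the array's scale. Each difference is the day 28 mean minus the day 7 mean, given ± its limma SE (n = 4 arrays at each time). The words rose and fell are kept for genes whose Benjamini-Hochberg adjusted p passed 0.05. The muscle label held at both times. Acta1, skeletal muscle actin, measured 13.50 to 13.60 at day 7 and 13.44 to 13.63 at day 28, and Ckm, muscle creatine kinase, 12.99 to 13.03 and 13.04 to 13.21. Arrays of the same day correlated at 0.985 to 0.99 across genes, which are not independent replicates. On the first principal component of all 16 arrays, which held 55.7% of the variance, day 7 arrays scored 11.8 to 25.7 and day 28 arrays -29.4 to -18.0. Control arrays lay further out, at -53.7 to -50.0, and day 3 arrays at 45.0 to 65.8. The day 7 and day 28 scores did not overlap (exact two-sided permutation test, p = 0.0286, the smallest that 4 against 4 allows). The median over tested genes was also lower at day 28, at 4.46 ± 0.032 (SD, n = 4) against 4.56 ± 0.019 (SD, n = 4) at day 7 (the same exact test, p = 0.0286). This difference of -0.107 lies between array medians, whereas the median of the differences of single genes was 0.022. Centring arrays on all tested genes moves that 0.022 to 0.129, which bears on small differences. Counts with such centring are given below for some lists. The median over all clusters was not lower at day 28, at 3.19 to 3.33 in day 7 arrays and 3.27 to 3.36 in day 28 arrays.

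The day 7 arrays differed in the level of many lists. Replicates 1 and 2 lay on one side of replicates 3 and 4 in the mean level of 29 of the 51 gene lists described here, below them in 10 and above them in 19. Any 4 unequal values split into a higher and a lower pair. This pairing was picked after the data were seen, and lists share genes, so the count does not test for a split. Across tested genes the median SD was 0.221 at day 7 and 0.215 at day 28. Leaving out day 7 replicates 1 and 2 together gave 1409 changed genes, and leaving out replicates 3 and 4 gave 2017, each with 2 day 7 arrays left. Nothing in the labels separates these arrays. Counts without these arrays are given beside the metabolic, endothelial, ribosomal, proteasome and some other lists. With fewer arrays fewer genes tend to pass, so a lower count does not by itself mean a different level.

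Of the 14557 genes, 2566 (17.6%) differed between the days, 1200 of them higher at day 28 (8.24%) and 1366 lower (9.38%). At least 2-fold changes numbered 597 (4.1%) and were mostly falls: 458 genes (3.15%) fell and 139 (0.955%) rose by that much, and at 4-fold or more there were 57 falls and 2 rises. The 4 arrays of each day did not overlap in 3071 genes (21.1%), which included 2227 of the called genes. The median gene differed by 0.022. The direction of the small changes depended on scaling: 46.8% of called genes were higher on the deposited values. The share was 65.7% after each array was centred on its median over the tested genes. It was 48.5% with arrays centred on the brighter 50% of tested genes and 43.5% under cyclic loess. In 199 of the genes that fell and 78 of those that rose, the lower mean lay under the median of all clusters of an array (3.19 to 3.36), where array values are compressed, so the true difference may be larger than the one printed.

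**Figure D1:**
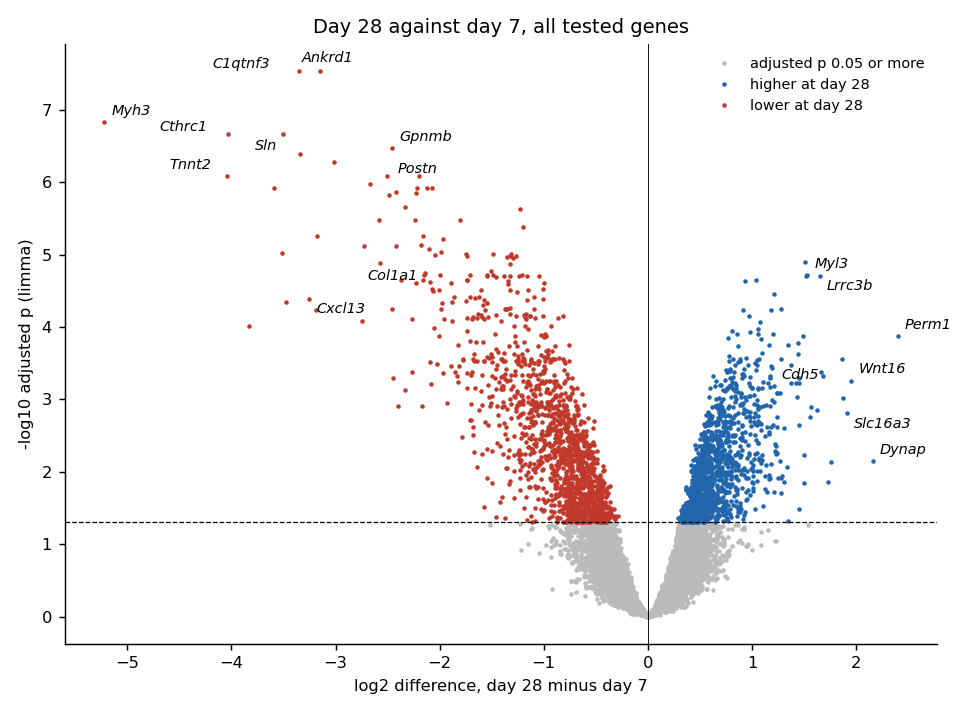
Log2 difference (day 28 minus day 7, horizontal) against -log10 of the adjusted p (vertical) for each tested gene, with 1 point per gene and the dashed line at an adjusted p of 0.05. The left arm reaches -5.22 in Myh3 and the right arm 2.40 in Perm1, so the falls extend further than the rises.

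The 15 largest falls among genes whose arrays did not overlap started with Myh3, the embryonic myosin heavy chain (-5.22 ± 0.35), Tnnt2, the cardiac and embryonic troponin T (-4.04 ± 0.32), Cthrc1, a secreted protein of activated fibroblasts (-4.03 ± 0.28), and Tnn, the matrix protein tenascin N (-3.83 ± 0.51). Ly49si1, a lectin-like receptor gene of the natural killer complex (-3.59 ± 0.30), Lrrc15, a membrane protein of activated fibroblasts (-3.51 ± 0.36), Sln, a small inhibitor of the calcium pump (-3.50 ± 0.25), and Mt2A, a metal-binding metallothionein (-3.48 ± 0.43), followed. C1qtnf3, a secreted protein related to complement C1q, fell by 3.35 on the log2 scale, with day 7 arrays at 7.81, 7.20, 7.89 and 7.54 and day 28 arrays at 4.19, 4.12, 4.48 and 4.24. Klk1, the tissue kallikrein protease, measured 6.03, 4.97, 4.39 and 4.93 at day 7 and 1.87, 1.95, 1.44 and 1.69 at day 28 (-3.34 ± 0.25 with adjusted p = 4.02e-07 in limma). Of the 4 times, day 7 was the one at which it stood out, since its means at day 0 and day 3 were 1.69 and 1.67. Slpi, a secreted inhibitor of leukocyte proteases (-3.19 ± 0.40), and Tubb6, a beta-tubulin (-3.01 ± 0.23), closed the largest falls together with Cxcl13, Mymk and Ankrd1, which are described below. The day 28 means of Tnn, Ly49si1, Lrrc15, Klk1, Slpi and Mymk lay under the cluster median.

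The 15 largest rises were smaller. Perm1, a muscle regulator of genes for oxidative metabolism, led them. Its day 7 arrays measured 6.16, 6.40, 8.25 and 7.79 and its day 28 arrays 9.35, 9.43, 9.43 and 9.99. The difference was 2.40 ± 0.33 with adjusted p = 1.33e-04 in limma, and the lowest day 28 array lay above the highest day 7 array although the day 7 arrays ranged widely. The difference was 1.53 without day 7 replicates 1 and 2 and 3.27 without replicates 3 and 4, both called. Slc16a3, the lactate exporter MCT4 of glycolytic fibres, showed the same spread, with 6.33, 6.64, 8.54 and 8.17 at day 7 and 9.51, 9.22, 9.13 and 9.45 at day 28 (1.91 ± 0.36, adjusted p = 0.00155 in limma). Wnt16, a secreted Wnt ligand (1.95 ± 0.32), Gucy1a2, a subunit of the nitric oxide receptor guanylate cyclase (1.68 ± 0.27), Ramp1, a partner of the receptor for calcitonin gene-related peptide (1.52 ± 0.17), and Ddit4l, an inhibitor of the growth kinase mTOR (1.57 ± 0.29), also rose. Lgi1 (1.87 ± 0.33) and Lgi3 (1.76 ± 0.42, not called without day 7 replicates 1 and 2, at 1.72), secreted leucine-rich proteins, Sbk2, a kinase (1.66 ± 0.26), Lrrc3b (1.65 ± 0.18) and B3galt1, a galactosyltransferase (1.62 ± 0.30), completed the group with genes of glycolysis and contraction given below.

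Dynap was the one gene among these 15 rises that was also called above control muscle at day 28. Its day 7 arrays measured 2.35, 4.36, 5.26 and 4.99, its day 28 arrays 6.21, 6.57, 6.98 and 5.83, and its day 0 mean was 3.70. It rose by 2.16 ± 0.51 from day 7 (adjusted p = 0.0072) and stood 2.70 ± 0.51 above day 0 (adjusted p = 0.00277), both in limma. The rise from day 7 was 1.27 and not called without day 7 replicates 1 and 2 (adjusted p = 0.083). The other 14 had differences from day 0 between -0.69 in B3galt1 and 0.45 in Sbk2, none of them called. Differences from day 0 use the same day 28 arrays as the differences from day 7, so the contrasts are not independent.

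The genes of embryonic contraction and of the acetylcholine receptor made up the list with the lowest median. Of 7 measured members, 6 fell and 0 rose, with a median of -1.99 beside 0.022 over all tested genes. Myh3 measured 11.20, 9.75, 11.41 and 11.86 at day 7 and 6.05, 6.14, 5.40 and 5.75 at day 28, and no day 28 array came within 3 log2 units of a day 7 array. Control muscle lay between, at a mean of 8.45, so the day 28 muscle held less Myh3 signal than control muscle did (-2.61 ± 0.35 with adjusted p = 1.13e-04 in limma). Tnnt2, normally a thin-filament protein of heart and of immature skeletal muscle, averaged 9.42 ± 0.55 (SD, n = 4) at day 7, where its lowest array was at 8.94, and measured 6.10, 5.09, 5.19 and 5.15 at day 28. Its day 28 mean of 5.38 stood beside 5.44 at day 0 (-0.05 ± 0.32, adjusted p = 0.947).

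**Figure D2:**
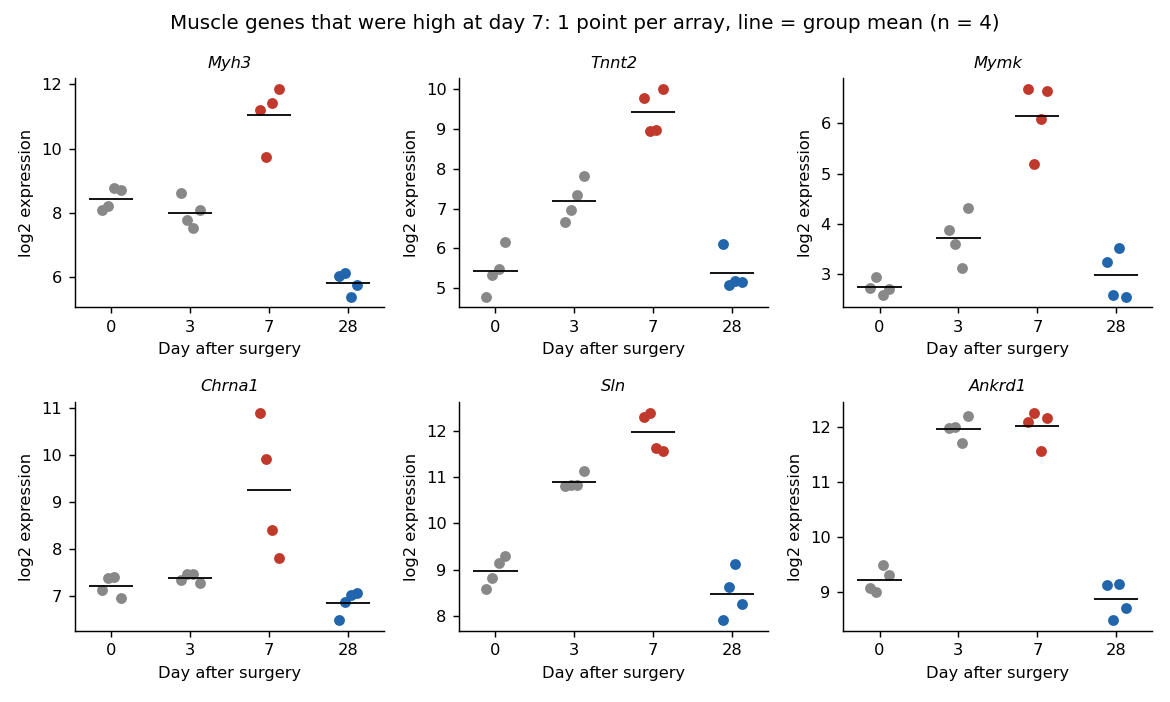
Log2 expression (vertical) of 6 muscle genes by day after surgery (horizontal), with 1 point per array, replicates 1 to 4 from left to right, and a line at each group mean (n = 4). Day 28 arrays all lie below day 7 arrays, and for Myh3 they also lie below all control arrays.

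The muscle acetylcholine receptor is a ring of 5 subunits under the nerve ending. Immature or denervated fibres carry the gamma subunit, Chrng, and adult junctions the epsilon subunit, Chrne, while the alpha and beta subunits, Chrna1 and Chrnb1, serve both. All 4 genes fell. Chrna1 measured 10.90, 9.90, 8.40 and 7.79 at day 7 and 6.47, 6.87, 7.01 and 7.05 at day 28 (-2.40 ± 0.44 with adjusted p = 0.00125 in limma), with the widest day 7 spread of the set. Chrng measured 6.19, 5.94, 5.33 and 6.01 at day 7 and 3.51, 3.72, 3.86 and 4.41 at day 28 (-1.99 ± 0.20, adjusted p = 9.09e-06 in limma). The fetal gamma and shared alpha subunits differed by more than Chrne (-0.77 ± 0.15, adjusted p = 0.00207) and Chrnb1 (-0.54 ± 0.13, adjusted p = 0.00775), a difference between genes that was not tested. The size of the Chrna1 difference rests on day 7 arrays that ranged from 7.79 to 10.90, with replicates 1 and 2 the highest. Chrnb1 was not called without day 7 replicates 1 and 2 together. At day 28, Chrne and Chrnb1 were also below control muscle, at log2 differences of -0.62 (adjusted p = 0.0154) and -0.49 (adjusted p = 0.0237).

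Myogenic transcription factors bind E-boxes, short palindromic DNA motifs, and the receptor subunits are textbook targets of those factors. The promoters are shown because the 4 subunits fell together; each runs from 250 bases before to 50 bases after the annotated start in RefSeq on the rat build GRCr8, on the gene's own strand, with each CAGCTG in capitals. Chrna1 (chr3:78877304-78877603, minus strand) and Chrng (chr9:95325734-95326033, plus strand) each hold 2 matches, and Chrnb1 (chr10:55015058-55015357, minus strand) and Chrne (chr10:55834105-55834404, minus strand) each hold 1.
Chrna1: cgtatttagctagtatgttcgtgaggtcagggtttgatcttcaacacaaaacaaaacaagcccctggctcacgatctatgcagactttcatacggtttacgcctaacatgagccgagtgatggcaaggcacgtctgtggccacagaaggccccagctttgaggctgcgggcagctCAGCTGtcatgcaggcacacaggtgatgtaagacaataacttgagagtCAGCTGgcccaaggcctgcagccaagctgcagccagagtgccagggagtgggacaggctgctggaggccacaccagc
Chrng: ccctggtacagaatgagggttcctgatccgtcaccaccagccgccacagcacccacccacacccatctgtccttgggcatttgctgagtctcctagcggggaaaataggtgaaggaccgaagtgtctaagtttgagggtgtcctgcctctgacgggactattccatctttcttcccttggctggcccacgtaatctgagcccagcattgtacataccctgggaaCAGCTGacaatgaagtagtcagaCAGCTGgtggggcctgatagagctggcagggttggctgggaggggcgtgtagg
Chrnb1: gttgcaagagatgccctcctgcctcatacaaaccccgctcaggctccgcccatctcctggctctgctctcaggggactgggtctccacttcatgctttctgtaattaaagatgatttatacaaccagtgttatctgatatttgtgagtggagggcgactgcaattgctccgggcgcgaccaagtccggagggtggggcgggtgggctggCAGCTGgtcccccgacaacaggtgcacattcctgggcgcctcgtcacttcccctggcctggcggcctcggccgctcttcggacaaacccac
Chrne: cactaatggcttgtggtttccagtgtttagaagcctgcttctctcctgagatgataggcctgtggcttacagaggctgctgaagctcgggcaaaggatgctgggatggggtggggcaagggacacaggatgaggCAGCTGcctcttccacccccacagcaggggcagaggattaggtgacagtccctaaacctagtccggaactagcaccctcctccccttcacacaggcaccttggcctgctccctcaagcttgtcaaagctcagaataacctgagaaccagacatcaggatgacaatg
The motif reads the same on both strands. Of 33469 promoter windows of that length, 5040 (15.1%) hold at least 1 match and 564 (1.69%) hold at least 2. A match describes the letters of the window and is not a measured binding site.

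Of 23 measured myogenic, satellite cell and fusion genes, 9 fell, 1 rose and 13 were not called (median -0.19, with 10 positive differences). Mymk, the membrane protein myomaker that lets myoblasts fuse, measured 6.69, 5.20, 6.08 and 6.65 at day 7 and 3.25, 2.59, 3.51 and 2.55 at day 28 (-3.18 ± 0.31 with adjusted p = 5.51e-06 in limma). All day 28 values were near the control mean of 2.74. Myog, the factor that starts terminal differentiation, fell by 1.18 on the log2 scale (SE 0.27, adjusted p = 0.00565; -0.75 and not called without day 7 replicates 1 and 2), and Myf5, an early lineage factor, by 1.07 (SE 0.20, adjusted p = 0.00121). Myf5 was still above control muscle at day 28 (0.77, adjusted p = 0.0199). Myod1, another lineage factor, fell by 0.69 on the log2 scale (SE 0.23, adjusted p = 0.0426), but its arrays overlapped (7.81 to 8.68 at day 7, 6.94 to 7.91 at day 28). The Myod1 call was lost in 12 of 27 settings, among them without day 7 replicate 1 (-0.71), 2 (-0.73) or 4 (-0.52), day 28 replicate 2 (-0.67), 3 (-0.74) or 4 (-0.52), day 0 replicate 1 or day 3 replicate 1 or 3 (-0.69 each). Vcam1, an adhesion molecule of activated satellite cells and vessels (-1.0 ± 0.22), fell as well. Hes1, a Notch target, was the member that rose (0.62, adjusted p = 0.0395), a call lost with array weights, with only days 7 and 28 fitted, and without day 7 replicate 2 (0.51), 3 (0.58) or 4 (0.64) or day 28 replicate 2 (0.56), 3 (0.64) or 4 (0.50).

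Many stretch and early-response genes fell. Ankrd1, a stretch-sensing protein of the sarcomere's I-band, measured 12.08, 12.26, 11.56 and 12.16 at day 7 and 9.12, 8.48, 9.15 and 8.71 at day 28 (-3.15 ± 0.18 with adjusted p = 2.92e-08 in limma), beside a control mean of 9.21. Of 15 stretch-responsive and heat shock genes, 6 fell and 2 rose (median -0.40). The small chaperones Hspb8 (-1.23 ± 0.11) and Hspb1 (-1.12 ± 0.17) and the Z-disc protein Csrp3 (-1.20 ± 0.22) were among those that fell, and Nrap, a scaffold of growing myofibrils (0.44, not called under cyclic loess, at 0.35), and the cochaperone Dnaja4 (0.58) rose. Of 20 early-response and load-response transcription genes, 11 fell and 0 rose (median -0.83). Ccn1, a secreted product of mechanical signalling, measured 10.37, 9.96, 9.31 and 10.10 at day 7 and 7.47, 6.83, 7.51 and 8.23 at day 28 (-2.42 ± 0.24, adjusted p = 7.64e-06 in limma), and it ended below control muscle (-1.06, adjusted p = 0.0103). Egr1 (-1.99 ± 0.25), Fos (-1.68 ± 0.34) and Fosb (-1.67 ± 0.38), transcription factors switched on within minutes of a stimulus, fell too, and the day 28 levels of these 3 did not pass the test against day 0 (-0.07, -0.78 and -0.10).

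Serum response factor drives many early genes through the CArG box, and the Egr1 window is shown because it carries 2 matches to that motif, in capitals (chr18:26736828-26737127, plus strand, GRCr8, RefSeq).
Egr1: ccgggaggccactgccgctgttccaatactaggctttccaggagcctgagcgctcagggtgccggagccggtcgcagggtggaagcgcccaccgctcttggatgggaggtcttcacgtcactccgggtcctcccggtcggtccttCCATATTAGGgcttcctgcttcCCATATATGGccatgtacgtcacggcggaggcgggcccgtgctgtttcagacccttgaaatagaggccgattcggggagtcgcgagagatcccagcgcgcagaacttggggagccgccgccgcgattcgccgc
The CArG box, searched on both strands, is in 548 of the 33469 windows (1.64%), and 7 (0.0209%) hold 2 or more. The windows of Junb and Ccn1, which also fell, hold 0 matches, which says only that the motif is not in these letters. Fos had no single promoter entry, so no Fos window was searched. Because the Egr1 window was printed for its matches, their rarity carries no weight here.

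The fast-fibre contractile list held no call, and the slow-fibre list held calls in both directions. Of 8 fast-fibre contractile genes, 0 rose and 0 fell (median 0.07, or -0.03 under cyclic loess, with members from -0.22 to 0.38). Array means of the list were 12.32 to 12.60 at day 7 and 12.43 to 12.65 at day 28, where the highest array value was 13.6. Very bright signals are compressed and 8 of 17 listed genes were measured, so the missing calls are weak evidence of no change. Myh4, the myosin of the fastest fibres, measured 12.60, 11.84, 12.16 and 12.42 at day 7 and 12.55, 12.63, 12.75 and 12.25 at day 28 (0.29 ± 0.21, adjusted p = 0.408). Of 13 slow-fibre genes, 3 rose and 2 fell (median 0.11, members from -2.06 to 1.53). Myl3, the slow-fibre and ventricular myosin light chain, rose from 9.83, 9.84, 10.13 and 9.61 to 11.07, 11.39, 11.42 and 11.67 (1.53 ± 0.17 with adjusted p = 1.91e-05 in limma), and each day 28 array exceeded each day 7 array. The slow myosins Myh7b (1.13 ± 0.27, adjusted p = 0.00814) and Myh7 (0.80 ± 0.26, adjusted p = 0.0425) rose by less, and the Myh7 arrays overlapped. The Myh7 call was lost in 13 of 27 settings, among them without day 7 replicate 2 (0.74), 3 (0.82) or 4 (0.64), day 28 replicate 2 (0.85), 3 (0.73) or 4 (0.58), day 0 replicate 2 or 3 or day 3 replicate 3 (0.80 each). Casq2, the calsequestrin of slow and cardiac muscle, went the other way, from 11.44, 11.05, 11.62 and 12.07 to 8.84, 9.34, 9.80 and 9.96 (-2.06 ± 0.25, adjusted p = 3.19e-05 in limma).

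Sarcomere scaffolds and membrane machinery were split. Of 17 scaffold genes, 4 fell and 2 rose (median -0.03, or 0.07 with arrays centred on all tested genes). Mybph, a myosin-binding protein (-1.27 ± 0.24), Myom3, a myomesin of the M-band (-1.10 ± 0.21), and Lmod2, which lengthens thin filaments (-0.81 ± 0.15), fell. Of 14 calcium handling genes, 2 fell and 3 rose (median 0.32), and the count of rises was 6 under an intensity trend with robust priors or with arrays centred on all tested genes. Sln, the pump inhibitor sarcolipin, measured 12.30, 12.40, 11.63 and 11.57 at day 7 and 7.90, 8.63, 9.12 and 8.25 at day 28. Stim1, a calcium sensor, rose (0.54 ± 0.12). Of 17 junction and excitability genes, 5 fell, 4 of them receptor subunits, and 4 rose (median 0.05, or -0.02 without day 7 replicate 2). Kcna7, a potassium channel of muscle, rose by 1.08 ± 0.14 (adjusted p = 8.63e-05 in limma). Erbb3, a neuregulin receptor, fell (-1.11 ± 0.25).

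Genes of the extracellular matrix fell from their day 7 levels, and many remained above control muscle. Of 14 fibrillar and network collagens, 10 fell and 2 rose (median -1.33). Col1a1, the main chain of type I collagen, measured 12.24, 11.21, 11.87 and 11.80 at day 7 and 9.77, 10.11, 9.75 and 9.51 at day 28 (-2.0 ± 0.22 with adjusted p = 1.88e-05 in limma). It was still 2.68 above its day 0 mean of 7.11 (adjusted p = 1.12e-06). Col1a2 (-1.74 ± 0.20), Col3a1 (-1.34 ± 0.16), Col8a1 (-2.07 ± 0.18) and Col16a1 (-1.60 ± 0.21) fell with it. Col24a1, a minor fibrillar chain, was the collagen with the larger rise (1.20, adjusted p = 0.00228). Against day 0, 9 of the 14 were called higher at day 28 and 0 lower, where 6.29% of all tested genes were called higher and 2.8% lower.

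Matrix glycoproteins and the enzymes that process collagen followed. Of 19 glycoproteins, 17 fell and 0 rose (median -1.13), and of 15 collagen processing and crosslinking enzymes, 10 fell and 0 rose (median -0.74). Cthrc1 measured 8.46, 7.53, 7.29 and 7.29 at day 7 and 3.78, 3.77, 3.97 and 2.93 at day 28. Postn, periostin, measured 11.54, 10.77, 11.17 and 11.39 at day 7 and 8.38, 8.78, 9.04 and 8.63 at day 28 (-2.51 ± 0.20, adjusted p = 8.25e-07 in limma). Both genes were separated cleanly by day, and both remained above day 0, by 1.27 and 1.84. Lox, the copper enzyme that crosslinks collagen, measured 9.29, 9.02, 8.67 and 8.98 at day 7 and an even 6.90, 6.86, 6.87 and 6.84 at day 28 (-2.12 ± 0.18, adjusted p = 1.18e-06 in limma). P4ha3, a prolyl hydroxylase subunit (-2.67 ± 0.22), Loxl1, a second crosslinker (-1.71 ± 0.19), and Fkbp10, a collagen chaperone (-1.59 ± 0.21), fell as well.

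Proteoglycans and proteases gave a more mixed picture. Of 18 proteoglycan and hyaluronan genes, 6 fell and 0 rose (median -0.49). Biglycan, Bgn (-2.20 ± 0.18), lumican, Lum (-2.18 ± 0.22), and asporin, Aspn (-1.80 ± 0.17), small proteoglycans that bind collagen, and Has2, a hyaluronan synthase (-1.25 ± 0.28), were among them. Of 22 proteases and inhibitors, 11 fell and 1 rose (median -0.68). Timp1, an inhibitor of metalloproteases, measured 9.80, 9.65, 8.14 and 8.40 at day 7 and 7.14, 7.05, 6.74 and 6.72 at day 28 (-2.09 ± 0.32, adjusted p = 3.04e-04 in limma), whereas its relative Timp4 rose (1.44 ± 0.21, adjusted p = 2.33e-04). Opposite calls within this inhibitor family were thus measured on the same arrays. The proteases Adam12 (-1.88 ± 0.23), Mmp11 (-1.62 ± 0.30) and Htra1 (-1.57 ± 0.19) fell. Of 19 basement membrane and attachment genes, 3 fell and 3 rose (median -0.16), with the integrins Itga7 (-0.72 ± 0.15) and Itga1 (0.87 ± 0.22) on opposite sides.

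**Figure D3:**
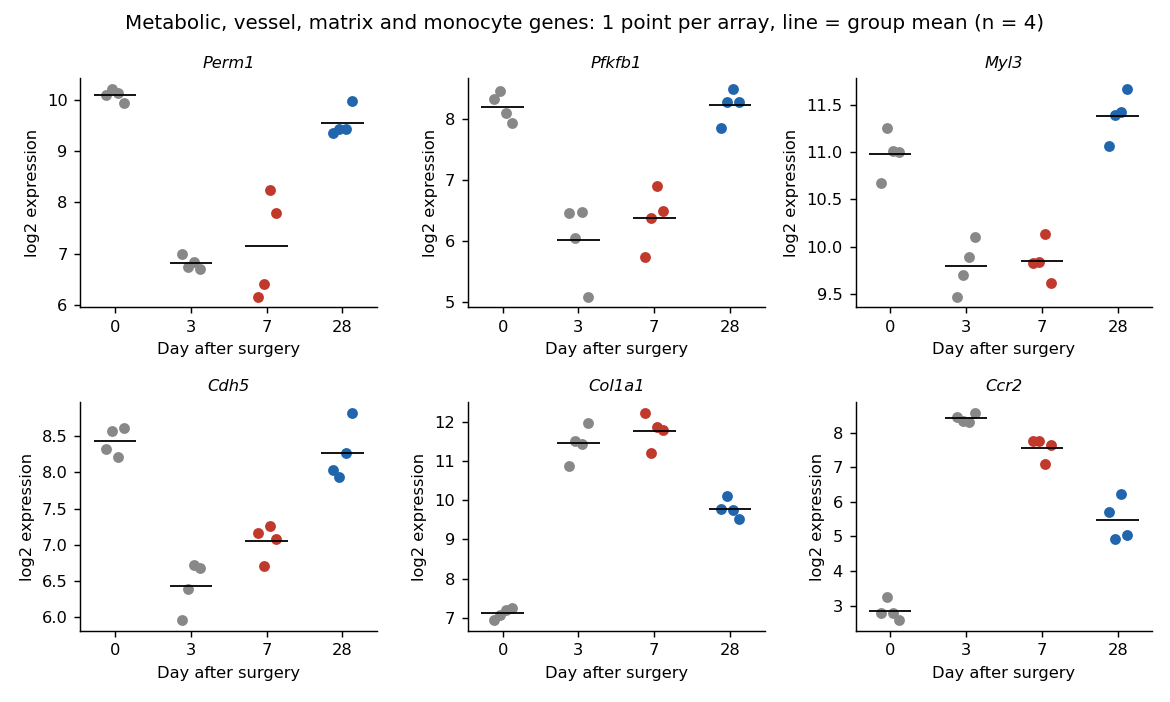
Log2 expression (vertical) of 6 genes by day after surgery (horizontal), with 1 point per array, replicates 1 to 4 from left to right, and a line at each group mean (n = 4). Perm1, Pfkfb1, Myl3 and Cdh5 rise from day 7 to day 28, while Col1a1 and Ccr2 fall and stay above the control arrays.

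Several fibroblast markers and part of a tenocyte list fell. Muscle tissue was measured in bulk, so fewer cells of a type and less RNA per cell cannot be told apart here or in the cell types below. Of 16 fibroblast and fibro-adipogenic progenitor markers, 9 fell and 0 rose (median -0.46), and 5 fell once arrays had been centred on all tested genes. The mean level of the whole list was 6.71 to 6.95 in day 7 arrays, 6.16 to 6.35 in day 28 arrays and 5.29 to 5.50 in control arrays, without overlap. S100a4, a calcium-binding protein of motile cells (-2.42 ± 0.21), and Thy1, a surface glycoprotein (-1.70 ± 0.31), fell most, and Pdgfra, the growth factor receptor that defines these progenitors, measured 8.81, 9.07, 8.81 and 8.81 at day 7 and 8.24, 8.06, 8.32 and 8.14 at day 28 (-0.68 ± 0.13, adjusted p = 0.00162 in limma). Of 12 tenocyte genes, 6 fell and 0 rose (median -0.61), with 4 positive differences. The largest falls were in Egr1 (-1.99), Egr2 (-1.74) and Thbs4 (-1.71). These are not particular to tendon and are also counted in the early-response, Schwann cell and matrix glycoprotein lists. The mean level of the tenocyte list overlapped between the days, at 6.35 to 7.15 in day 7 arrays and 5.76 to 6.53 in day 28 arrays. Scx, the tendon transcription factor scleraxis, fell by 0.88 on the log2 scale and Cilp, a cartilage and tendon matrix protein, by 1.64, while Tnmd, tenomodulin, averaged 5.71 and 5.77 (adjusted p = 0.954), with a sign that turned without day 7 replicate 2 (-0.30) or day 28 replicate 3 (-0.22) or 4 (-0.16). Mkx, the tendon factor mohawk, averaged 3.49 and 4.10 (0.61, adjusted p = 0.197).

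Among the immune lists, the macrophage list held the most falls. Of 25 macrophage and monocyte genes, 20 fell and 0 rose (median -1.12). At day 28, 18 of the 25 were still called above control muscle and 0 below, where 6.29% of all tested genes were called higher and 2.8% lower. The list's mean level was 6.21 to 6.66 in day 7 arrays, 4.91 to 5.24 in day 28 arrays and 3.92 to 4.16 in control arrays. Gpnmb, a glycoprotein of lipid-laden and repair macrophages, measured 9.53, 9.24, 8.82 and 9.08 at day 7 and 6.94, 6.52, 6.55 and 6.83 at day 28 (-2.46 ± 0.18 with adjusted p = 3.33e-07 in limma). Ccr2, the receptor that draws monocytes from blood, measured 7.77, 7.76, 7.10 and 7.65 at day 7 and 5.72, 4.94, 6.22 and 5.04 at day 28 (-2.09 ± 0.24, adjusted p = 2.35e-05 in limma). Day 28 values of Ccr2 were scattered over more than 1 log2 unit but all were above the control mean of 2.84. Lilrb4, an inhibitory receptor (-2.49 ± 0.22), and Cd68, a lysosomal glycoprotein (-2.23 ± 0.19), completed the leading 4.

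Complement, lysosome and chemokine genes, which macrophages share with fibroblasts and other cells, also held mostly falls among their calls, and the part of each cell type was not tested. Of 10 complement genes, 8 fell and 0 rose (median -1.26), with the C1q chains C1qa (-1.46 ± 0.19) and C1qc (-1.28 ± 0.21), the inhibitor Serping1 (-1.33 ± 0.19) and C3 (-1.66 ± 0.28) in front. Of 20 lysosome genes, 11 fell and 0 rose (median -0.55), among them the collagen-degrading cathepsin Ctsk (-1.44 ± 0.21), Grn, progranulin (-1.30 ± 0.14), and Lgmn, legumain (-1.27 ± 0.13). Of 40 cytokines and chemokines, 15 fell and 1 rose (median -0.40). Cxcl13, a chemokine that attracts B cells, measured 8.81, 7.45, 7.19 and 7.53 at day 7 and 5.05, 2.97, 5.27 and 4.69 at day 28 (-3.25 ± 0.40, adjusted p = 4.07e-05 in limma), still 2.54 above day 0 (adjusted p = 5.11e-04). The monocyte attractants Ccl2 (-1.82 ± 0.30), Ccl7 (-1.64 ± 0.40) and Ccl12 (-1.97 ± 0.19) fell. Il15, a cytokine that muscle fibres also make, was the one that rose (1.31, adjusted p = 0.00251).

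Lymphoid and antigen-presenting genes fell in smaller shares. Of 23 lymphocyte and natural killer genes, 8 fell and 0 rose (median -0.63), and the count was 5 without day 7 replicate 1 or 4 or day 28 replicate 2 or 3, and 4 without day 28 replicate 4. The list was dim, at a mean of 3.36 to 3.79 in day 7 arrays and 2.78 to 3.04 in day 28 arrays, so much of it lay at or under the cluster median. Cd8a (-1.35 ± 0.22), Cd8b (-1.54 ± 0.26) and Cd4 (-1.41 ± 0.21), co-receptors of T cells that rat macrophages can also carry, led it, beside Il7r, a cytokine receptor of T cells (-1.20 ± 0.23). Among defining T and natural killer cell markers, Cd3e fell (-0.92, adjusted p = 0.0407 in limma), with overlapping arrays. The other such markers measured, Cd3d, Cd3g, Prf1 and Ncr1, were not called. Of 17 antigen presentation genes, 8 fell and 0 rose (median -0.72), or 5 without day 28 replicate 4, including the class II chain RT1-Da (-1.31 ± 0.21), its chaperone Cd74 (-1.19 ± 0.18) and B2m of class I (-0.82 ± 0.11). Of 23 interferon response genes, 5 fell and 0 rose (21.7% called, beside 17.6% of all tested genes, median -0.32). Irf8, a myeloid transcription factor, fell most (-1.50 ± 0.23). Of 13 neutrophil genes, Selplg, a selectin ligand that many leukocytes carry, fell (-1.50 ± 0.24) and the others were not called. The share called was 7.7%, below the 17.6% of all tested genes (median -0.19, or 0.05 without day 7 replicate 2). S100a8, a defining neutrophil marker, averaged 2.92 at day 7 and 2.00 at day 28, with day 7 replicate 2 at 5.83 and the other day 7 arrays lower. Without that array its difference was 0.05 in place of -0.92.

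The median difference of the mitosis list from day 0 was 2.97 at day 3 and 0.31 at day 7. Of 27 mitosis genes, 5 fell and 1 rose between days 7 and 28 (22.2% called, beside 17.6% of all tested genes). Their median was -0.37, or 0.05 without the dimmest 50% of genes. Of 28 DNA replication genes, 3 fell and 0 rose (10.7% called, below the share of all tested genes). Their median was -0.20, beside 0.022 over all tested genes. Prc1, which bundles the microtubules of the dividing spindle, measured 4.99, 4.80, 5.01 and 5.13 at day 7 and 3.77, 3.62, 3.39 and 2.78 at day 28, after a mean of 6.88 at day 3 (-1.59 ± 0.29 with adjusted p = 0.0012 in limma). Cdc20, an activator of the anaphase ligase (-1.17 ± 0.24), and the replicative helicase subunits Mcm6 (-1.19 ± 0.25) and Mcm3 (-1.02 ± 0.24) fell. Ccna2, cyclin A, did not pass (-0.65 ± 0.32, adjusted p = 0.186). Bub1, a checkpoint kinase, was the member that rose (0.80 ± 0.23, adjusted p = 0.025), with overlapping arrays. That call was lost with only days 7 and 28 fitted and without day 7 replicate 3 (0.64) or 4 (0.71) or day 28 replicate 1 (0.74), 2 (0.76) or 3 (0.70).

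Many genes of fuel use rose, by an amount that depended on which day 7 arrays were used. Of 18 glycolysis and glycogen genes, 11 rose and 0 fell (median 0.68). Their mean level was 9.17, 9.23, 9.74 and 9.67 in the day 7 arrays and 10.23 to 10.32 in the day 28 arrays, so each day 28 array was above each day 7 array. Without day 7 replicates 1 and 2 the count was 5 (median 0.43), and without replicates 3 and 4 it was 14 (median 0.86). Pfkfb1, a bifunctional enzyme that sets the glycolytic activator fructose 2,6-bisphosphate, measured 5.73, 6.37, 6.90 and 6.49 at day 7 and 7.86, 8.29, 8.50 and 8.29 at day 28 (1.86 ± 0.28 with adjusted p = 2.74e-04 in limma), beside a control mean of 8.21. Its relative Pfkfb3 rose by 1.56 ± 0.30 and Fbp2, the fructose bisphosphatase of muscle, by 1.29 ± 0.33, the latter with overlapping arrays. Of 21 citrate cycle and pyruvate genes, 17 rose and 0 fell (median 0.54), or 11 without day 7 replicate 1 or 2, 5 without both and 20 without replicates 3 and 4. Sucla2, a succinyl-CoA synthetase subunit, measured 10.19, 10.09, 10.34 and 10.18 at day 7 and 10.94, 11.17, 11.23 and 11.24 at day 28 (0.94 ± 0.14, adjusted p = 2.65e-04 in limma). Idh3g (0.79 ± 0.12), Sdha (0.70 ± 0.16, or 0.46 and not called without day 7 replicates 1 and 2) and Dld (0.68 ± 0.15), enzymes of the same cycle, rose. At day 28, 0 of the 21 were called either way against day 0, where 9.09% of all tested genes were.

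Of 31 fatty acid oxidation genes, 18 rose and 1 fell (median 0.55), or 7 and 1 without day 7 replicates 1 and 2. Acsl1, which activates fatty acids (1.02 ± 0.20), Acadm, medium-chain acyl-CoA dehydrogenase (0.97 ± 0.16), and Mlycd, malonyl-CoA decarboxylase (0.89 ± 0.16), rose. Ucp2, a mitochondrial carrier abundant in immune cells, fell (-1.07 ± 0.17) and was still above control muscle (0.87, adjusted p = 0.00365). Of 41 oxidative phosphorylation genes, 17 rose and 0 fell (median 0.36), and all 41 differences were positive. That count was 29 with arrays centred on all tested genes and 11 with only days 7 and 28 fitted. It was 9 without day 7 replicate 1, 10 without day 7 replicate 2, 5 without both, 11 without day 28 replicate 1, and 10 without day 28 replicate 2 or 3. Cyc1, cytochrome c1 of complex III, measured 8.74, 8.64, 9.21 and 9.12 at day 7 and 9.61, 9.70, 9.69 and 9.82 at day 28 (0.78 ± 0.14, adjusted p = 0.00123 in limma).

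Of 18 oxidative regulators and mitochondrial biogenesis genes, 9 rose and 0 fell (median 0.42), or 4 and 0 without day 7 replicates 1 and 2. Ppargc1a, the coactivator PGC-1alpha, measured 7.93, 8.39, 8.54 and 8.65 at day 7 and 9.01, 9.14, 9.19 and 9.77 at day 28 (0.90 ± 0.19 with adjusted p = 0.00291 in limma). Its partners Ppara, a fat-sensing nuclear receptor (1.13 ± 0.21), and Esrra, an orphan receptor (0.79 ± 0.18), rose. All 3, like Perm1, had day 28 arrays entirely above the day 7 arrays, and none of the 4 was called against day 0. Ppargc1a (0.68, adjusted p = 0.053) and Esrra (0.54) were not called without day 7 replicates 1 and 2. Of 16 mitochondrial carriers and creatine genes, 3 rose and 1 fell (median 0.25), with 6 rises under centring on all tested genes. Slc25a11, a carrier of the malate-aspartate shuttle, rose (0.52 ± 0.13), while Gatm, the first enzyme of creatine synthesis, fell by 2.57 on the log2 scale to a dim 3.11.

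Of 19 endothelial genes, 10 rose and 0 fell (median 0.60). The count was 2 without day 7 replicates 1 and 2, 6 without replicates 3 and 4, and 4 without day 28 replicate 4, whose list mean of 6.41 lay above the 5.67 to 5.89 of the other day 28 arrays. Day 7 arrays averaged 5.35, 5.28, 5.33 and 5.41, below each day 28 array and without a gap between replicates 1 and 2 and replicates 3 and 4. With either pair left out, fewer of all tested genes were called too (1409 and 2017, against 2566). Cdh5, the cadherin that joins endothelial cells, measured 7.16, 6.70, 7.26 and 7.08 at day 7 and 8.03, 7.93, 8.27 and 8.83 at day 28 (1.21 ± 0.21 with adjusted p = 6.58e-04 in limma). Flt1, a vascular endothelial growth factor receptor, measured 5.12, 5.92, 6.03 and 6.03 at day 7 and 6.78, 6.41, 6.52 and 7.68 at day 28 (1.07 ± 0.25, adjusted p = 0.00679 in limma), and it was still below control muscle at day 28 (-0.95, adjusted p = 0.0251). Esm1, a secreted product of endothelial tip cells (1.45 ± 0.29), and the transcription factor Sox17 (0.87 ± 0.23) also rose, the last not being called without day 28 replicate 4 (0.69). Of 9 pericyte and smooth muscle genes, 2 rose and 0 fell (22.2% called, beside 17.6% of all tested genes, median 0.32). Lmod1, a smooth muscle leiomodin, rose most (1.37 ± 0.23).

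Part of the protein synthesis genes fell. Of 32 cytosolic ribosomal protein genes, 14 fell and 0 rose (median -0.48), and 30 of the 32 differences were negative. The count was 8 with arrays centred on all tested genes, with only days 7 and 28 fitted, and without day 7 replicate 1 or 2 or day 28 replicate 4, and 5 without both day 7 replicates. Rpl3 measured 10.41, 10.18, 9.65 and 10.14 at day 7 and 8.79, 8.66, 8.33 and 8.22 at day 28 (-1.60 ± 0.19 with adjusted p = 3.10e-05 in limma) and was the member with the largest fall, followed by Rplp2 (-0.86 ± 0.14). Of 26 ribosome biogenesis genes, 4 fell and 0 rose (15.4% called, below the 17.6% of all tested genes, median 0.07). Myc, a growth factor-induced regulator, fell most (-1.51 ± 0.27). Of 23 chaperones and unfolded protein response genes of the endoplasmic reticulum, 7 fell and 3 rose (median -0.21), with 4 falls without day 7 replicate 1 or 2 or day 28 replicate 2 or 4 and 2 without both day 7 replicates. The translocon subunit Sec61a1 fell (-0.93 ± 0.18), and Chac1, an enzyme of glutathione breakdown induced by stress (1.45 ± 0.45), rose together with the stress factor Atf4 (0.58). The Chac1 call was lost with only days 7 and 28 fitted and without day 7 replicate 2 (1.27) or 3 (1.33) or day 28 replicate 1 (0.92). Of 27 proteasome genes, 3 fell and 0 rose (11.1% called, below the 17.6% of all tested genes, median -0.24). The count of falls was 0 without day 7 replicates 1 and 2 and 10 without replicates 3 and 4.

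Of 20 atrophy ligase and autophagy genes, 5 rose and 1 fell (30.0% called, beside 17.6% of all tested genes, median 0.26). Fbxo32, the muscle ubiquitin ligase atrogin-1, measured 9.79, 9.92, 9.42 and 9.10 at day 7 and 10.57, 10.27, 10.17 and 10.52 at day 28 (0.82 ± 0.20 with adjusted p = 0.00762 in limma). Klhl38, a ligase adaptor of muscle (1.19 ± 0.21), and Asb2, another adaptor (0.80 ± 0.19), rose as well, and Eda2r, a receptor linked to muscle wasting in mice, fell (-0.91 ± 0.16). Trim63, the ligase MuRF1 that is often paired with Fbxo32, did not pass (0.16 ± 0.14, adjusted p = 0.503), nor did Mstn, myostatin, the inhibitor of muscle growth (0.23 ± 0.31, adjusted p = 0.695). Whether Fbxo32 and Trim63 differed from each other was not tested. Of 21 amino acid transport, polyamine and one-carbon genes, 4 fell and 1 rose (23.8% called, median -0.27). Mthfd2, a mitochondrial folate enzyme of growing cells (-1.28 ± 0.18), and Slc7a5, a leucine transporter (-0.94 ± 0.19), fell, and Amd1, of polyamine synthesis, rose (0.60 ± 0.12).

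Genes of a list named non-muscle cytoskeleton fell almost throughout. The list also holds genes of other kinds, such as the lectin Lgals3 and the calcium-binding S100a11. Of 21 measured, 19 fell and 0 rose (median -0.97). At day 28, 10 were still called above control muscle, where 6.29% of all tested genes were. Tubb6 measured 9.78, 9.45, 9.13 and 9.67 at day 7 and 7.14, 6.03, 6.36 and 6.46 at day 28 (adjusted p = 5.30e-07 in limma), beside 6.65 at day 0. Lgals3, the lectin galectin 3 (-2.07 ± 0.24), Coro1a, an actin regulator of leukocytes (-1.67 ± 0.25), and S100a11, a calcium-binding protein (-1.63 ± 0.21), fell. These genes are shared by macrophages, fibroblasts and regenerating fibres, and the part of each in their fall was not tested.

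The signalling lists differed in their share of called members. Of 29 Wnt genes, 7 rose and 6 fell (44.8% called, beside 17.6% of all tested genes, median 0.10). Without day 7 replicates 1 and 2, 3 rose. Wnt16 measured 3.44, 3.35, 4.23 and 3.51 at day 7 and 4.49, 5.33, 6.40 and 6.12 at day 28. The secreted Wnt antagonists Sfrp1 (-1.75 ± 0.18) and Dkk3 (-1.40 ± 0.24) fell, and so did Ccn4, a matrix-associated Wnt target (-1.55 ± 0.35). Of 29 genes of TGF-beta, activin and BMP signalling, 3 fell and 2 rose (17.2% called, near the 17.6% of all tested genes; median 0.01, or -0.01 with array weights or without day 7 replicate 1 and -0.07 without day 28 replicate 4). Tgfb1, a driver of fibrosis, fell (-1.14 ± 0.18, adjusted p = 3.34e-04), as did Tgfb3 (-0.57 ± 0.13). Of 15 insulin-like growth factor genes, 5 fell and 0 rose (33.3% called, median -0.12). The binding proteins Igfbp4 (-1.70 ± 0.27) and Igfbp6 (-0.92 ± 0.14), the imprinted RNA H19 (-0.67 ± 0.14) and the receptor Igf2r (-0.57 ± 0.13) were among those that fell.

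**Figure D4:**
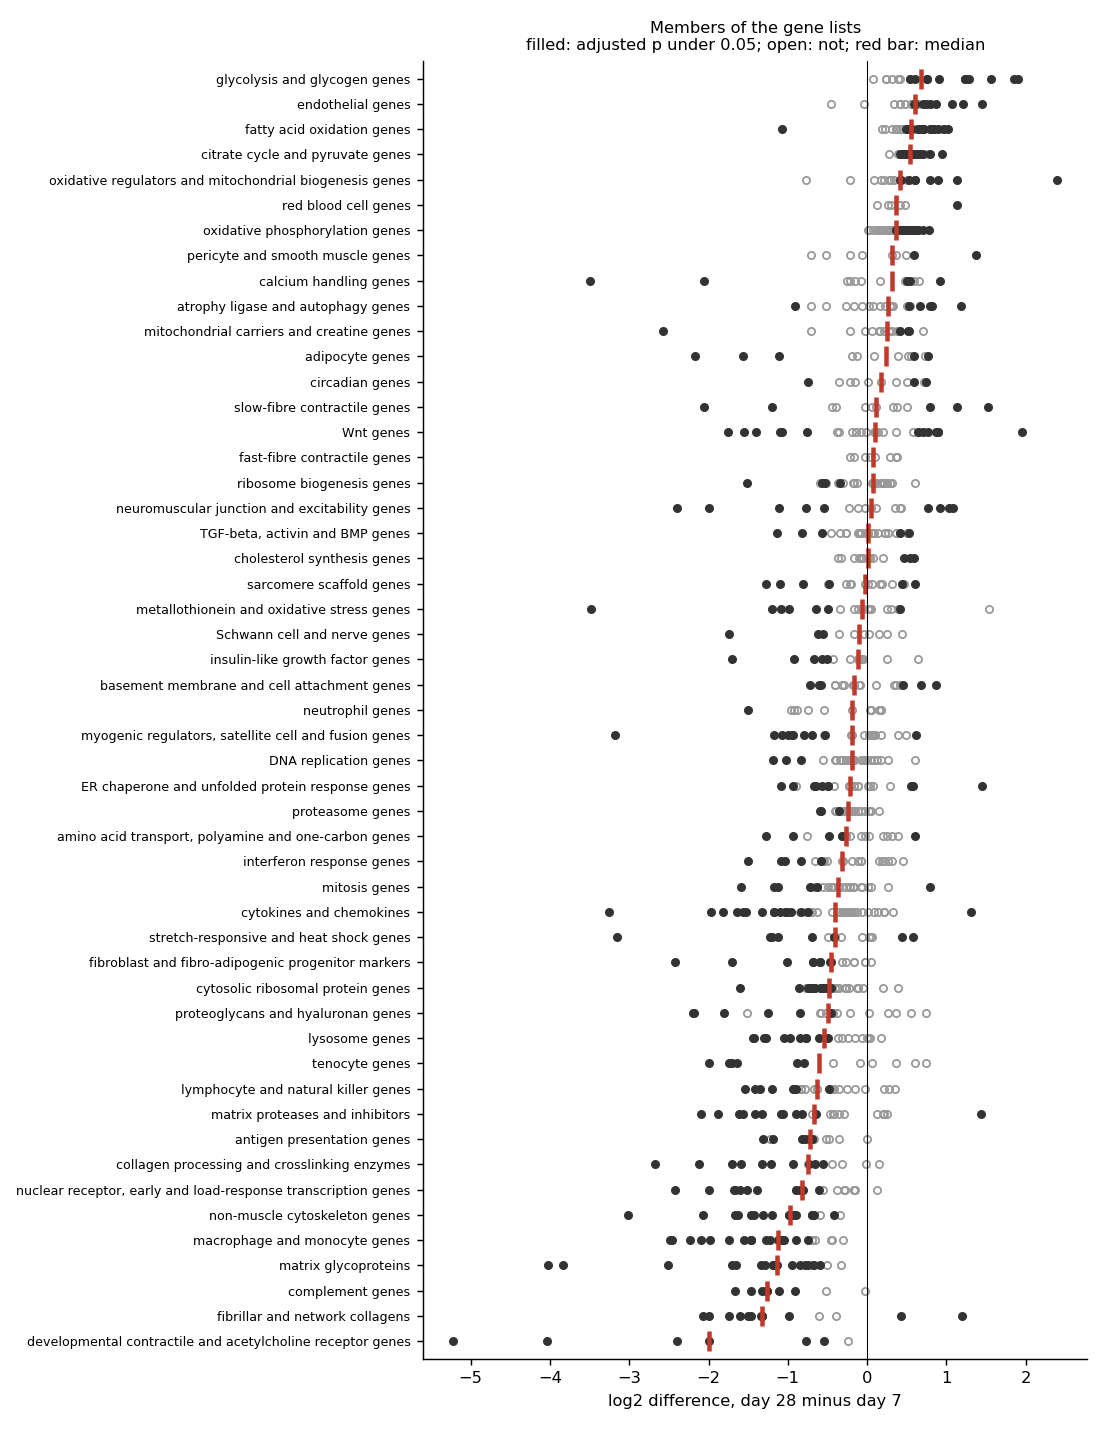
Log2 difference, day 28 minus day 7 (horizontal), of each measured member of the 51 gene lists (vertical, ordered by median), with filled points for members with an adjusted p under 0.05, open points for the others and a red bar at the median. Glycolysis and endothelial genes stand at the top with medians of 0.68 and 0.60, and collagens and the developmental contractile and receptor genes at the bottom with -1.33 and -1.99.

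Set beside control muscle, the lists that fell ended at different distances from it. The median difference from day 0 went from 2.63 at day 7 to 1.11 at day 28 in collagens, from 2.24 to 0.92 in matrix glycoproteins, from 2.47 to 1.24 in macrophage genes and from 2.33 to 1.03 in complement genes. Matrix and macrophage lists therefore kept a raised median. Developmental contractile and receptor genes went from 1.53 to -0.46. At day 28, 3 of the 7 (Myh3, Chrnb1 and Chrne) were called below control muscle, where 2.8% of all tested genes were. On the rising side, glycolysis genes went from -0.84 to -0.07, citrate cycle genes from -0.50 to 0.08, fatty acid oxidation genes from -0.51 to 0.04 and endothelial genes from -0.67 to -0.17. Over all tested genes the medians were -0.043 at day 7 and -0.005 at day 28. All these contrasts share the day 0 arrays. In number of genes, 4617 of 14557 (31.7%) differed from day 0 at day 7 and 1323 (9.09%) at day 28.

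**Figure D5:**
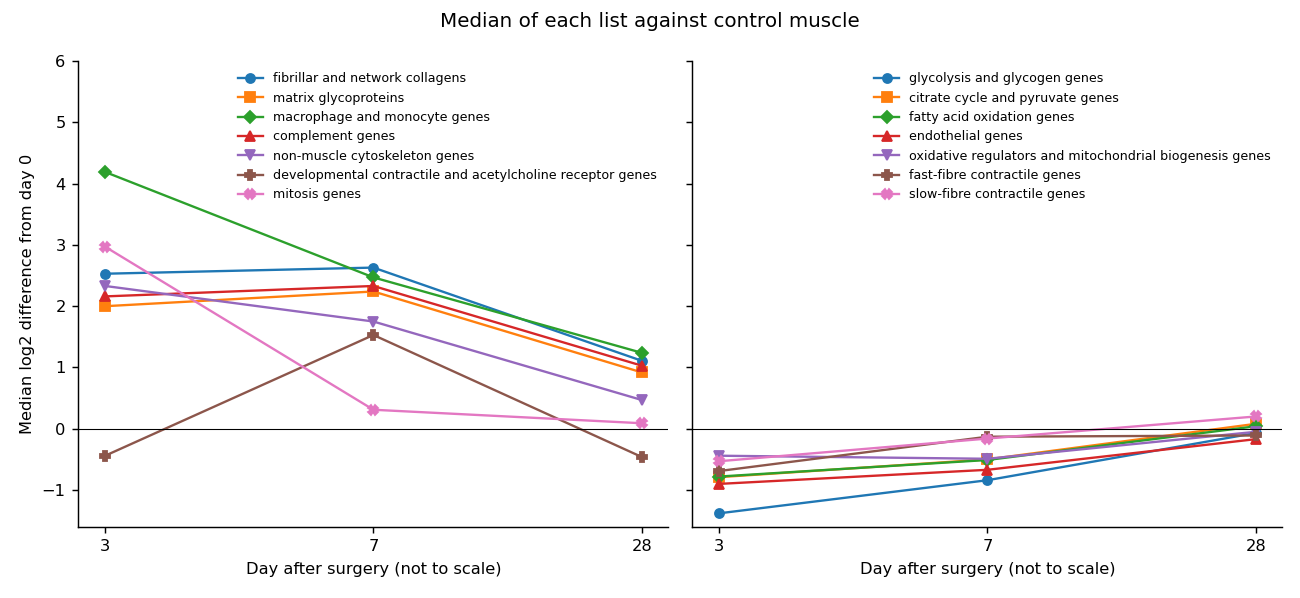
Median log2 difference from day 0 (vertical) over the measured members of 14 gene lists at days 3, 7 and 28 (horizontal, not to scale). Left: lists with high medians at day 3 or 7, of which collagens, matrix glycoproteins, macrophage and complement genes end between 0.92 and 1.24. Right: metabolic, vessel and adult contractile lists, which end between -0.17 and 0.20.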

How the data were processed

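Per the labels' protocols, 400 ng of total plantaris RNA went into each biotin labelling for the Affymetrix array. The authors deposited a log2 value for every transcript cluster on every array. Their processing notes name RMA, oligo and limma, while versions, parameters and genome build are not given in the sources used here. Array signals are compressed for very dim and very bright clusters. The number of arrays, 4 per group, limits the precision.

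Clusters were named through the platform annotation: 14824 of 36685 had exactly 1 symbol, 829 had several and 21032 had none. Where a gene had several clusters (234 genes), the brightest on average across the 16 arrays stood for it, which left 14557 genes. RefSeq gene IDs matched 14413 symbols and changed 0.

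All 16 arrays entered 1 group-means fit (limma 3.58.1, R 4.3.3; 12 residual degrees of freedom) without further normalization, and day 28 minus day 7 was tested two-sided with Benjamini-Hochberg adjustment over all genes at 0.05. The fit was also run on simulated arrays with known changes, with noise independent between genes and of the same spread on every day. Real arrays can differ in both, so that run does not check the calls given here. Lists are described by counts and medians without a set test. Of 1327 symbols in the 51 lists, 946 were measured.

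Genes were named by rule: the 15 largest rises and 15 largest falls with arrays that did not overlap, up to 4 called members per list, and a panel. Chrne, Chrnb1, Hes1, Nrap, Dnaja4, Col24a1, Timp4, Il15, Atf4 and Junb, and the cell type markers Acta1, Ckm, S100a8, Cd3d, Cd3e, Cd3g, Prf1, Ncr1, Scx, Tnmd, Mkx and Adipoq, lie outside that rule and were chosen after their values were seen. The comparison, the lists and the rule were chosen with earlier results of these data known. Promoter sequences are from RefSeq, build GRCr8. Alternatives covered priors, weights, filters on dim genes, centring, cyclic loess, cluster choice, the groups fitted, the replicate number as a block and each array left out; leaving out 2 day 7 arrays at once was added after seeing the data.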

Additional observations from a re-analysis of the deposited data

Results flagged for a closer look

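In the day 7 and day 28 groups of 4 arrays, the highest or lowest array was compared with the others. This was done for every gene given values in the text except Cd3e. An array stood apart where its gap to the nearest other array exceeded Dixon's critical share of the group's range, which chance gives in about 1 of 20 groups. Of 356 groups, over 178 genes, 18 held such an array, which is about the share that chance gives. The arrays listed here are therefore not set apart from chance. At day 28, replicate 1 was highest in Asb2 (11.42, with the others at 10.90 to 10.96), Chac1 (8.31, others 6.04 to 6.37), Pfkfb3 (8.75, others 7.72 to 7.75), Tgfb1 (6.46, others 6.13 to 6.18) and Tnnt2 (6.10, others 5.09 to 5.19). Replicate 4 of day 28 was highest in Perm1 (9.99, others 9.35 to 9.43) and Timp4 (7.65, others 6.94 to 6.99), and replicate 3 was highest in Mcm3 (4.39, others 3.67 to 3.78) and lowest in Slc25a11 (11.47, others 11.51 to 11.52). At day 7, replicate 1 was lowest in Flt1 (5.12, others 5.92 to 6.03) and highest in Mcm3 (5.25, others 4.78 to 4.85) and Scd (9.77, others 8.18 to 8.42). Replicate 2 of day 7 was highest in Kcna7 (6.79, others 6.36 to 6.43) and Pdgfra (9.07, with the others all at 8.81) and lowest in Npas2 (5.04, others 5.45 to 5.50). Replicate 3 was lowest in S100a4 (9.54, others 10.19 to 10.25) and Serping1 (8.24, others 8.76 to 8.85), and replicate 4 was highest in Hspb8 (11.23, others 10.91 to 10.96).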

How the results depend on the processing

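Of 218 genes tracked across the 27 alternative settings listed in the methods, 207 were called and 176 of these were called in every setting in which they were tested; called genes kept their direction in all of them. Signs turned in genes that were not called: Acta1 (0.07 with arrays centred on all tested genes), S100a8 (0.05 without day 7 replicate 2, and -1.45 to 0.05 over all arrays left out in turn) and Tnmd (-0.30 without day 7 replicate 2, -0.22 without day 28 replicate 3 and -0.16 without day 28 replicate 4, with a range of -0.30 to 0.49). Centring on all tested genes shifted the median difference by 0.107 and gave 2014 rises and 1051 falls. With all 36685 transcript clusters tested, 1859 rose and 1160 changed at least 2-fold. Otherwise, counts of changed genes ran from 2140 with only days 7 and 28 fitted to 2825 without the dimmest 25% of genes. Leaving out each of the 16 arrays in turn gave 2037 to 2638 changed genes, 925 to 1254 rises, 1102 to 1384 falls and 538 to 661 changes of at least 2-fold. Leaving out 2 day 7 arrays at once was chosen after seeing the data. Without replicates 1 and 2, 1409 genes changed (597 rises, 812 falls), 53 of the 207 calls were lost and 0 turned. S100a8 (0.06) and the medians of neutrophil (0.08), Schwann cell (0.01), junction (-0.00) and metallothionein genes (0.04) changed sign. Calls lost include Myh7b, Fos, Chrnb1, Scx, Has2, Itga1, Flt1, Mcm3, Mcm6, Fbp2, Ccl7, Igf2r, Asb2, Stim1, Slc25a11, Nrap and Npas2, and falls went to 2 in mitosis, 5 in lymphocyte, 4 in antigen presentation, 1 in ribosome biogenesis, 2 in amino acid and 3 in metallothionein genes, and rises to 3 in atrophy genes. Without replicates 3 and 4, 27 calls were lost, including Esm1, Fbxo32, Tgfb3, Ccn4 and Ahsp, and 0 turned. Trim63 (-0.02), Tnmd (-0.05) and the ribosome biogenesis median (-0.02) changed sign, and falls went to 4 in neutrophil, 3 in interferon, 2 in ribosome biogenesis and 2 in amino acid genes. With the replicate number as a fixed block, 2564 genes changed, and as a random block 2590. The labels tie the numbers to no shared animal or batch, and deviations of same-numbered day 7 and day 28 arrays correlated at 0.068, -0.036, 0.003 and 0.053, so the numbers were not taken as pairs. Medians of 9 of 51 lists changed sign in at least 1 setting. They were those of TGF-beta genes (-0.01 with array weights and without day 7 replicate 1, -0.07 without day 28 replicate 4), cholesterol synthesis genes (-0.00 with array weights and without day 7 replicate 2, -0.10 without day 28 replicate 1) and mitosis genes (-0.37 became 0.05 without the dimmest 50% of genes). Centring on all tested genes turned Schwann cell (0.00), sarcomere scaffold (0.07) and metallothionein genes (0.04), cyclic loess turned fast-fibre genes (-0.03), and leaving out day 7 replicate 2 turned neutrophil (0.05), Schwann cell (0.01) and junction genes (-0.02). Over all arrays left out in turn these 3 medians ran from -0.46 to 0.05, -0.15 to 0.01 and -0.02 to 0.15, those of TGF-beta genes from -0.07 to 0.04 and of cholesterol synthesis genes from -0.10 to 0.07. The causes were not tested.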

Other observations

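Of 19 metallothionein and oxidative stress genes, 6 fell and 1 rose (median -0.06, or 0.04 with arrays centred on all tested genes, and 3 falls without day 7 replicate 2). Mt2A, a metallothionein that buffers zinc and copper, measured 8.62, 8.07, 7.77 and 7.69 at day 7 and 5.40, 4.88, 4.13 and 3.84 at day 28. Cyba, a subunit of the phagocyte oxidase (-1.20 ± 0.18), and Mt3, a second metallothionein (-1.09 ± 0.20), fell with it. Of 12 adipocyte genes, 3 fell and 2 rose (median 0.24). Scd, which makes monounsaturated fat, measured 9.77, 8.18, 8.42 and 8.32 at day 7 and 6.07, 7.71, 5.74 and 6.50 at day 28 (-2.17 ± 0.40 with adjusted p = 0.00124 in limma), and Cidea, a lipid droplet protein, fell by 1.57 on the log2 scale. Both were higher at day 7 than their day 0 means of 5.54 and 6.56, while Adipoq, the adipocyte hormone adiponectin, was not called between days 7 and 28 (0.73, adjusted p = 0.0846), though it was in 5 of 27 settings.

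Of 11 circadian genes, 2 rose and 1 fell (27.3% called, beside 17.6% of all tested genes, median 0.18). The activators Clock (0.59 ± 0.12) and Npas2 (0.75 ± 0.18) were on the rising side. The hour at which muscles were taken is not given in the labels. Of 13 cholesterol synthesis genes, 3 rose and 0 fell (23.1% called, median 0.01, or -0.10 without day 28 replicate 1). Fdft1, squalene synthase, was among them (0.54 ± 0.11). Of 10 Schwann cell and nerve genes, 3 fell and 0 rose (30.0% called, median -0.11, or 0.00 with arrays centred on all tested genes). Egr2, a factor of myelination and of early responses, fell most (-1.74 ± 0.30). Of 6 red blood cell genes, 1 rose and 0 fell (16.7% called, near the 17.6% of all tested genes, median 0.36). The member that rose was Ahsp, the chaperone of alpha haemoglobin (1.14 ± 0.32, from a dim 2.28). Ahsp was not called without day 7 replicate 3 (0.95) or day 28 replicate 4 (0.96). Hba-a1, alpha haemoglobin itself, measured 7.36, 7.28, 6.78 and 7.04 at day 7 and 7.22, 7.28, 7.38 and 7.60 at day 28 (0.26 ± 0.20, adjusted p = 0.444), and its day 28 arrays were above control muscle (1.04, adjusted p = 0.00315).

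Clusters outside the named genes carried signal too. With all clusters fitted together, 902 of 21032 clusters without a symbol rose and 596 fell (7.12% called), 26 of 829 clusters with several symbols rose and 74 fell (12.1%), and 931 of 14824 clusters with 1 symbol rose and 1122 fell (13.8%). Clusters without a symbol were dim, with a median level of 2.89 against 4.51 for those with 1 symbol.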
